A study of Rattus norvegicus with 23 samples.

Results

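The genes described here were 9 cytochrome P450 genes of families 2 and 3: Cyp2e1, Cyp2c22, Cyp2c23, Cyp2c7, Cyp2a1, Cyp2a2, Cyp2d4, Cyp3a9 and Cyp3a18. They were listed by name, each was read from the probe set annotated to that gene alone with the highest mean over the 23 samples, and all 9 were found among the 14217 genes measured. Expression was measured with an Affymetrix rat genome array in the left lateral liver lobe of male Sprague Dawley rats aged 6 to 8 weeks, gavaged for 5 days and necropsied 24 h after the last dose following an overnight fast. Alpha-naphthylisothiocyanate (ANIT, 100 mg/kg) was compared with corn oil at 5 ml/kg, methylenedianiline (MDA, 100 mg/kg) with 35% ethanol at 2 ml/kg, acetaminophen (APAP, 1000 mg/kg) with 2 ml/kg of corn oil, and diclofenac (DCLF, 10 mg/kg) with water at 10 ml/kg. Each group held 3 rats except water, which held 2, and each compound was compared only with the vehicle of its own in-life study. ANIT and MDA are used to injure bile ducts, whereas APAP and DCLF are drugs that can injure hepatocytes. RNA came from a piece of whole lobe, so fewer cells of a type and less RNA per cell cannot be told apart in any result below.

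Cytochromes P450 are heme enzymes of the endoplasmic reticulum that oxidize drugs, steroids, fatty acids and retinoids with electrons passed on by the reductase Por. Families 2 and 3 carry most hepatic drug oxidation. In the rat many of their members differ between males and females, because the pulsed growth hormone of males acts on their genes through the factor STAT5B. Cyp2e1 oxidizes ethanol and small solvents, turns APAP into its reactive quinone imine and lies in hepatocytes around the central vein. Cyp2c22 hydroxylates retinoic acid, Cyp2c23 makes epoxides of arachidonic acid and Cyp2c7 is a steroid and retinoid hydroxylase that is higher in females. Cyp2a1 and Cyp2a2 hydroxylate testosterone, and Cyp2a2 belongs to adult males. Cyp2d4 is a member of the debrisoquine hydroxylase subfamily. Cyp3a9 is the female-predominant and Cyp3a18 a male-predominant member of the steroid-hydroxylating family 3A.

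Promoter sequences of 8 of the 9 genes (all but Cyp2a2) were matched by gene identifier in RefSeq (build GRCr8). The 250 bases before the annotated start are printed below for the 2 genes that moved farthest in opposite directions in MDA livers among those called (Cyp2c22 and Cyp2e1), for the gene with the largest fall in ANIT livers (Cyp3a18) and for Cyp2c7, the remaining gene that holds a marked motif. Each is written in the direction of transcription, with capitals marking the nuclear receptor half-site AGGTCA or its reverse complement TGACCT. The windows are chr1:248980768-248981017 on the minus strand, chr1:205269717-205269966 on the plus strand, chr12:13994062-13994311 on the plus strand and chr1:247966144-247966393 on the plus strand.
Cyp2c22: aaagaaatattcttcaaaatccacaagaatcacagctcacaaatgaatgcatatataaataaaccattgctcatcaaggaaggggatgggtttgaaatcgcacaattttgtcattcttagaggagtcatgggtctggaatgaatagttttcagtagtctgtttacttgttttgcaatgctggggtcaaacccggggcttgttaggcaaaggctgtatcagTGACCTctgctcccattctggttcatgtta
Cyp2e1: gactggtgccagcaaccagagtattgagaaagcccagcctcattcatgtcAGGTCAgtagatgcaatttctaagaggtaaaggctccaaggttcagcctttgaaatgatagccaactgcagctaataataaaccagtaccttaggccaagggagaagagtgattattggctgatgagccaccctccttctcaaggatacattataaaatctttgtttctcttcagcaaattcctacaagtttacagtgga
Cyp3a18: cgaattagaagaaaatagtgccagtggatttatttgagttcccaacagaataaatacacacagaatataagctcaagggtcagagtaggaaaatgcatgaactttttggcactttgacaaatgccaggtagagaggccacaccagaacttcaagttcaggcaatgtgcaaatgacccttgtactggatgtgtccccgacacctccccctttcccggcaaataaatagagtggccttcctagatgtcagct
Cyp2c7: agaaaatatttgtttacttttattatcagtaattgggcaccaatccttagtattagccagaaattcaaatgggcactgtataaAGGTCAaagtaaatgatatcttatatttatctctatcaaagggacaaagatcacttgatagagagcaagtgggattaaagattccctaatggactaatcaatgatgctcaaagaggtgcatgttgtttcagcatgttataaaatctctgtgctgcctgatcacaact
The half-site, searched on both strands, was in 3 of the 8 windows, against 13.7% of 27457 rat promoters of the same length. It began 200 bases before the start in Cyp2e1, 167 before it in Cyp2c7 and, on the opposite strand, 30 before it in Cyp2c22. A STAT5 palindrome (TTC and GAA parted by any 3 bases, the same on both strands) was in 0 of the 8 windows and in 7.52% of all promoters. These are matches of letters in a short window and say nothing of a factor's binding.

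One technical feature has to be read before the values. On 3 arrays, those of ANIT replicates 1 and 2 and of corn oil (5 ml/kg) replicate 2, the top of the scale was lower: the brightest probe set lay between 14.57 and 14.97 log2 units there and between 15.86 and 15.99 on the other 20 arrays. The 20th brightest probe set lay at 14.37 to 14.44 on these 3 arrays and at 15.63 to 15.71 on the others. Corn oil replicate 2 was a median of 1.33 below the other 2 corn oil arrays over the 27 brightest probe sets, but within 0.11 of them in median for every class of probe sets dimmer than 14. Cyp2e1 and Cyp2c7 lay among the brightest probe sets of most arrays, and in the vehicles of the APAP and DCLF study both read between 15.66 and 15.77, next to that top. A rise of either gene from there could hardly be read, a fall from there may be understated, and their values on the 3 arrays are bounded. Results of the ANIT comparison are therefore also given without these arrays, in a fit of all remaining arrays in which the single ANIT array left is assumed to vary like the other groups. That setting was chosen after seeing the data, and what lowered the ceiling was not tested.

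**Figure D1:**
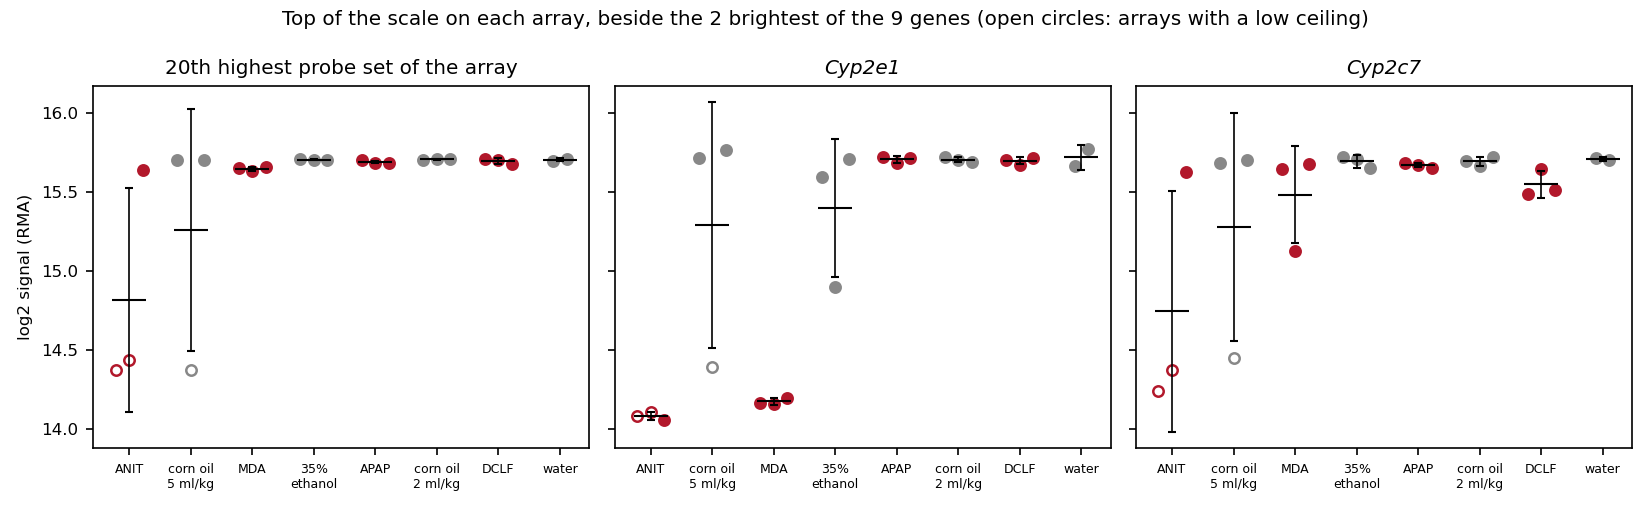
Log2 signal on each of the 23 arrays, by group, of the 20th brightest probe set (left), Cyp2e1 (middle) and Cyp2c7 (right). Circles are single arrays, open circles the 3 arrays with a low ceiling, horizontal bars group means and error bars the SD (n = 3, water 2). In the left panel the open circles lie at 14.37 to 14.44 and all others at 15.63 to 15.71.

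The tissue read as liver: the hepatocyte genes Alb, Ttr and Serpina1 were among the brightest on every array, with a lowest reading of 14.32 (Ttr). Over 7 cholangiocyte markers the mean log2 level of a sample lay between 8.38 and 8.87 in ANIT livers, 7.90 and 8.06 in corn oil (5 ml/kg) livers, 8.54 and 8.78 in MDA livers and 8.20 and 8.23 in ethanol livers. Over 11 macrophage markers it was 10.72 to 11.14 in ANIT livers against 10.72 to 10.84 in corn oil (5 ml/kg) livers, and 11.30 to 11.56 in MDA livers against 10.25 to 10.56 in ethanol livers. Over 11 stellate cell and fibroblast markers it was 10.21 to 10.57 in ANIT livers against 9.63 to 9.84 in corn oil (5 ml/kg) livers, and 10.11 to 10.40 in MDA livers against 9.23 to 9.66 in ethanol livers. The part of these shifts in the P450 changes below was not tested.

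The ANIT comparison asked what a bile duct toxicant does to these enzymes. In ANIT livers 4 of the 9 genes fell (Cyp3a18, Cyp3a9, Cyp2a2 and Cyp2d4) and 1 rose (Cyp2c22), by between 1.61 and 2.99-fold. A gene was called at a Benjamini-Hochberg adjusted p under 0.05 by limma, over 31042 probe sets, with a fold over 1.5. By that rule 5.38% of all probe sets were called (2.63% higher, 2.75% lower). The median log2 change of the 9 genes was -0.68, beside -0.02 over all genes. Groups did not overlap for 6 of the 9 (1 higher, 5 lower), against 33% of all genes (14.1% higher, 18.8% lower). Log2 changes below are compound minus vehicle ± SE.

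Cyp3a18, the male-predominant family 3A member, had 12.05, 11.87 and 12.10 log2 units in ANIT livers, against 13.69, 13.34 and 13.74 in corn oil livers. Every ANIT sample was over 1 unit below every corn oil sample, a change of -1.58 ± 0.124 (2.99-fold lower, adjusted p = 0.000627, limma). Without the 3 low-ceiling arrays, with ANIT replicate 3 alone left of its group, it was -1.62.

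Cyp3a9, its female-predominant relative, fell as well, with 10.01, 10.87 and 9.81 in ANIT livers and 11.40, 11.86 and 11.46 in corn oil livers. ANIT replicate 2 lay nearest to the controls and still below them. The change was -1.34 ± 0.265 (2.53-fold lower, adjusted p = 0.0191, limma). The call was lost when any corn oil replicate (-1.20 to -1.43) or ANIT replicate 1 (-1.23) was left out, and without the low-ceiling arrays (-1.62, adjusted p = 0.0749).

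Cyp2a2, the testosterone hydroxylase of adult males, had 12.11, 12.25 and 12.28 in ANIT livers and 13.30, 13.16 and 13.47 in corn oil livers. The groups stood apart with little spread, at -1.10 ± 0.0996 (2.14-fold lower, adjusted p = 0.00101, limma). Its close paralog Cyp2a1 had 12.88, 12.78 and 12.63 in ANIT livers and 12.65, 12.50 and 12.86 in corn oil livers. These overlapped, with a change of 0.09 ± 0.114 and a 95% confidence interval of -0.17 to 0.36 that leaves out a 1.5-fold difference (0.585 log2 units). A probe set annotated to both genes was called lower, at -0.63 ± 0.143 (adjusted p = 0.0324, limma). The paralogs are close in sequence, and cross-hybridization of either probe set with the other transcript was not tested.

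Cyp2d4 had 11.22, 10.95 and 11.09 in ANIT livers and 11.78, 11.62 and 11.90 in corn oil livers. Its 2 groups did not overlap, and the change was -0.68 ± 0.105 (1.61-fold lower, adjusted p = 0.00727, limma). A second, dimmer Cyp2d4 probe set was lower too (-0.85 ± 0.106, adjusted p = 0.00322).

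Cyp2c22, the retinoic acid hydroxylase, ran the other way. It had 14.14, 14.43 and 15.03 in ANIT livers and 13.53, 13.67 and 13.83 in corn oil livers. All ANIT samples were above all controls, and the highest was the array with a full scale (0.86 ± 0.209, 1.81-fold higher, adjusted p = 0.0418, limma). The call was lost without any 1 corn oil replicate (0.79 to 0.94) or without ANIT replicate 2 (0.91). Without the low-ceiling arrays the change was 1.35 ± 0.184 and was called (adjusted p = 0.000241).

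Cyp2e1, the pericentral ethanol oxidase, read 14.08, 14.11 and 14.06 in ANIT livers and 15.71, 14.39 and 15.76 in corn oil livers. The low control was the low-ceiling array, and the ANIT array with a full scale was the lowest of all. The change of -1.21 ± 0.330 was not called (adjusted p = 0.0619, limma). It was called at -1.65 without corn oil replicate 2 (adjusted p = 0.000971). Without the 3 low-ceiling arrays, with ANIT replicate 3 alone left of its group, it was -1.68. The other 2 controls were next to the top of the scale, which may understate both falls. The first setting also keeps the low-ceiling ANIT arrays beside full-scale controls, which may overstate its fall, so -1.65 is not a lower limit. Quantile normalization gave -1.32, and a single fit of all 8 groups left the change at -1.21; both called it.

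Cyp2c7 had 14.24, 14.37 and 15.62 in ANIT livers, against 15.68, 14.44 and 15.70 in corn oil livers. Its 3 low readings were on the 3 low-ceiling arrays. Its change was -0.53 ± 0.441 (adjusted p = 0.561, limma) and -0.07 ± 0.158 without them. Cyp2c23, the arachidonate epoxygenase, had 13.91, 13.87 and 14.20 in ANIT livers and 14.25, 14.10 and 14.41 in corn oil livers. These groups overlapped (-0.26 ± 0.120, adjusted p = 0.252). Leaving out the 3 low-ceiling arrays gave -0.13 for Cyp2c23.

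**Figure D2:**
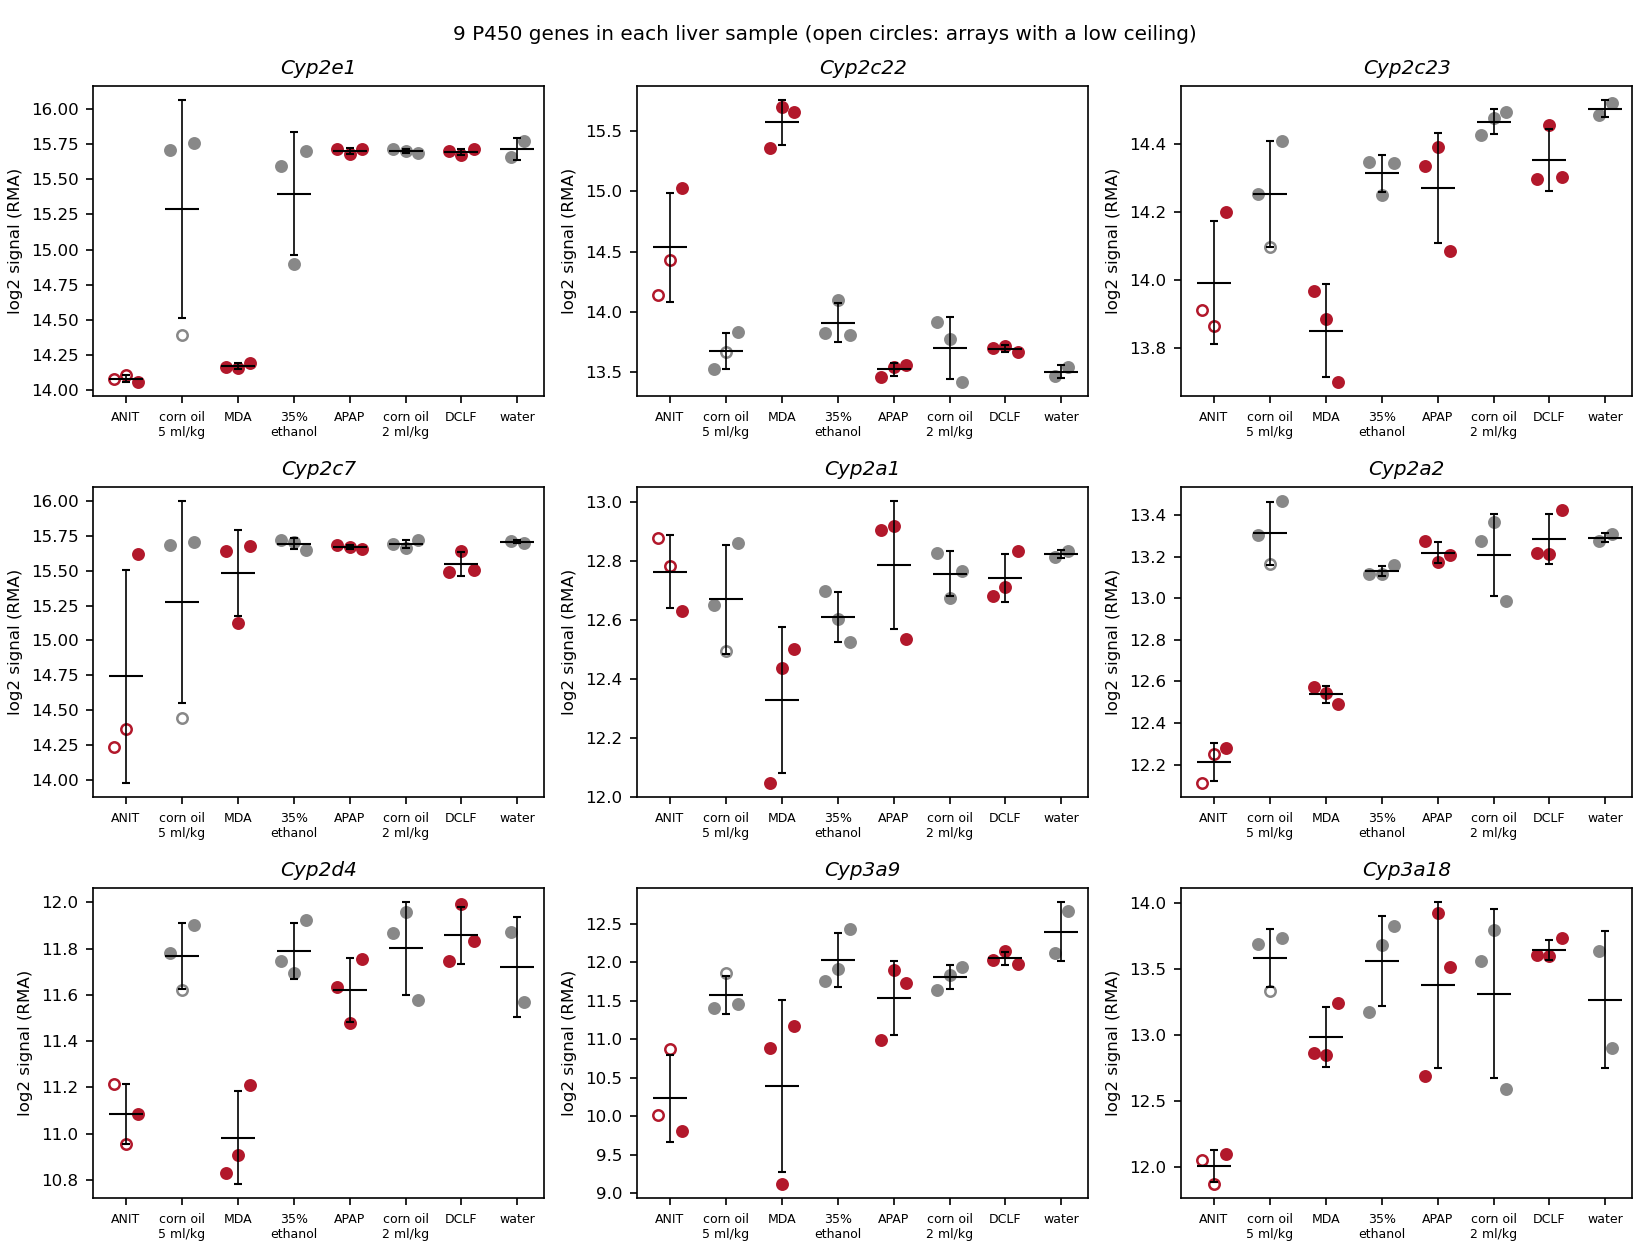
Log2 signal of each of the 9 genes in every liver sample, 1 panel a gene, with each compound (red) left of its vehicle (gray). Horizontal bars are group means, error bars the SD (n = 3, water 2), and open circles the 3 low-ceiling arrays. Cyp3a18, Cyp2a2 and Cyp2d4 in ANIT livers lie below all their controls, while Cyp2c22 in MDA livers lies at 15.36 to 15.70 above all of its controls.

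The MDA comparison put the same question to another bile duct toxicant in another vehicle. In MDA livers 3 of the 9 genes fell (Cyp2e1, Cyp2d4 and Cyp2a2) and 1 rose (Cyp2c22), by between 1.51 and 3.17-fold. The background was 7.02% of probe sets called (3.24% higher, 3.78% lower). The median log2 change of the 9 genes was -0.58, beside 0.00197 over all genes, and groups did not overlap for 7 of the 9 (1 higher, 6 lower), against 35.6% of all genes (17.1% higher, 18.4% lower).

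Cyp2c22 had 15.36, 15.70 and 15.66 in MDA livers and 13.83, 14.10 and 13.81 in ethanol livers. The MDA samples stood more than 1 unit above the controls, at 1.66 ± 0.124 (3.17-fold higher, adjusted p = 0.0003, limma). MDA replicates 2 and 3 were at or above the 20th brightest probe set of their arrays, where a larger rise could hardly be read. The call held with each replicate left out (1.60 to 1.77).

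Cyp2e1 had 14.16, 14.16 and 14.20 in MDA livers and 15.59, 14.90 and 15.70 in ethanol livers. The MDA samples were nearly equal and below every control, and the spread came from ethanol replicate 2, whose array had a full scale. The change was -1.23 ± 0.191 (adjusted p = 0.00498, limma). Ethanol replicates 1 and 3 were next to the top of the scale, so the fold of 2.34 is at most a lower limit.

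Cyp2d4 fell to 10.83, 10.91 and 11.21 in MDA livers, against 11.75, 11.69 and 11.92 in ethanol livers. The groups did not overlap, with a change of -0.81 ± 0.121 (1.75-fold lower, adjusted p = 0.00436, limma). The second Cyp2d4 probe set was also lower (-1.14 ± 0.175).

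Cyp2a2 had 12.57, 12.54 and 12.49 in MDA livers and 13.12, 13.12 and 13.16 in ethanol livers. Both groups were tight and did not overlap (-0.59 ± 0.0785, adjusted p = 0.00261, limma). At 1.51-fold the fall was just past the threshold, and it was under it with quantile normalization (-0.40), without ethanol replicate 3 (-0.58) and without MDA replicate 3 (-0.57). Cyp2a1 was at 12.05, 12.44 and 12.50 in MDA livers and 12.70, 12.61 and 12.53 in ethanol livers. The groups were adjacent without overlapping, and the change was not called (-0.28 ± 0.129, adjusted p = 0.221). The probe set of both genes was called lower here as well (-0.60 ± 0.110).

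The 2 family 3A genes were not called in MDA livers. Cyp3a9 had 10.89, 9.12 and 11.17 in MDA livers and 11.75, 11.91 and 12.43 in ethanol livers. No samples overlapped, but MDA replicate 2 lay far below the other 2, and the change was -1.64 ± 0.476 (adjusted p = 0.0592, limma). Without that replicate it was -0.999 and called (adjusted p = 0.029), and it was also called without MDA replicate 3 (-2.03, adjusted p = 0.0339). Cyp3a18 had 12.86, 12.85 and 13.25 in MDA livers and 13.18, 13.69 and 13.83 in ethanol livers. The groups overlapped at 1 sample each (-0.58 ± 0.181, adjusted p = 0.0768), and without ethanol replicate 1 the change was -0.77 and called (adjusted p = 0.0182).

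Cyp2c23 had 13.97, 13.89 and 13.70 in MDA livers and 14.35, 14.25 and 14.34 in ethanol livers. Its change of -0.46 ± 0.0965 passed the adjusted p (0.0173, limma) but at 1.38-fold not the fold. Cyp2c7 had 15.64, 15.13 and 15.67 in MDA livers and 15.72, 15.71 and 15.65 in ethanol livers. Only MDA replicate 2 left the top of the scale (-0.21 ± 0.146, adjusted p = 0.447).

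Setting the bile duct toxicants against each other, the difference of their effects (ANIT effect minus MDA effect, 4 groups in 1 fit) called 0 of the 9 genes by limma, where 1.16% of probe sets were called (0.551% higher, 0.612% lower). At an unadjusted p under 0.05 there were 3. Cyp3a18 had a difference of -1.003 ± 0.240, a deeper fall with ANIT (95% confidence interval -1.52 to -0.48, adjusted p = 0.0708). Cyp2a2 had -0.50 ± 0.122, again deeper with ANIT (interval -0.77 to -0.24, adjusted p = 0.0749). Cyp2c22 had -0.80 ± 0.264, a smaller rise with ANIT (interval -1.38 to -0.23, adjusted p = 0.207). ANIT replicates 1 and 2 read Cyp2c22 near the top of their low-ceiling arrays, so compound and ceiling cannot be told apart in this difference. Cyp3a18 was called with quantile normalization (-1.16, adjusted p = 0.0294) or with dim probe sets left out (-1.003, adjusted p = 0.0399), and Cyp2c22 without ANIT replicate 3 (-1.05, adjusted p = 0.0257). Leaving out ANIT replicate 3 kept only the low-ceiling ANIT arrays, so that call cannot separate the compounds from the ceiling. Without the low-ceiling arrays these 3 differences were -1.04, -0.51 and -0.31, none called. For Cyp2d4 the difference was 0.12 with an interval of -0.24 to 0.48, which leaves out a 1.5-fold difference between the effects. For Cyp2e1 the difference of 0.02 spanned -0.90 to 0.94 and did not bound it that closely.

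**Figure D3:**
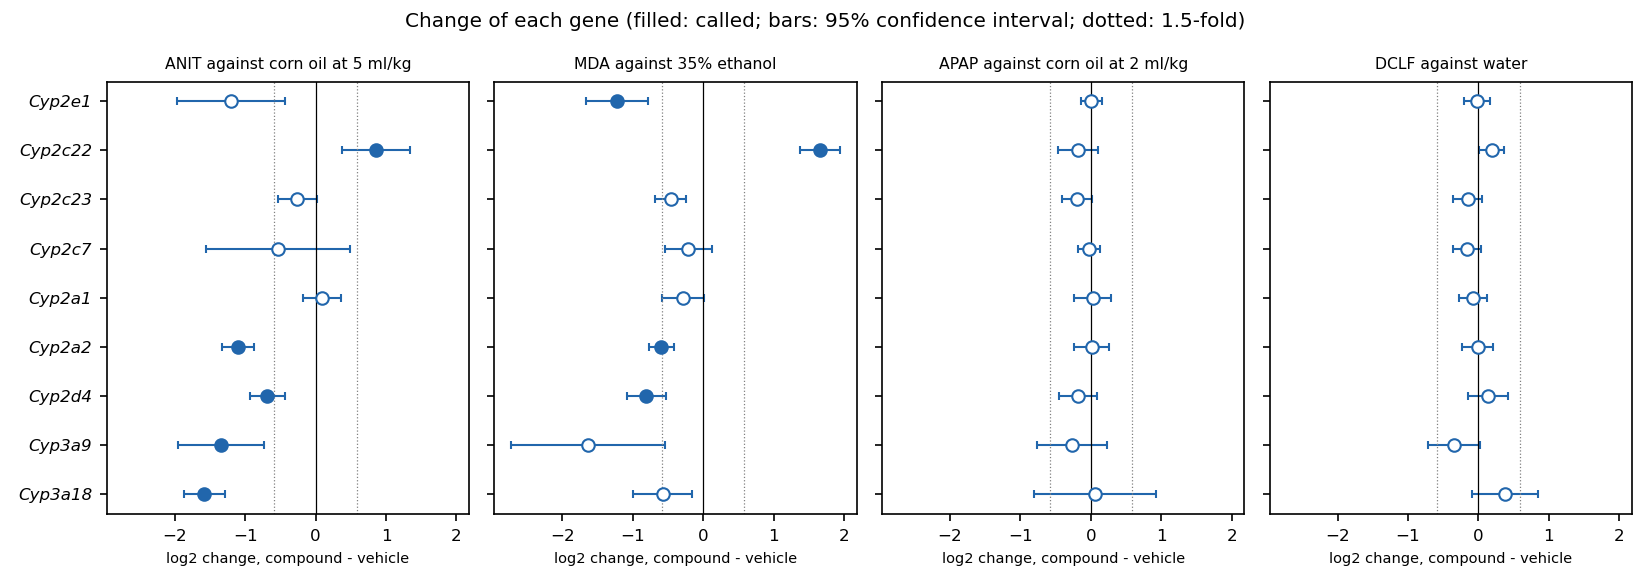
Log2 change (compound minus vehicle) of each of the 9 genes in the 4 comparisons, with points as estimates, bars as 95% confidence intervals, filled points as calls and dotted lines at 1.5-fold. Cyp2c22 is the single gene called to the right of 0, at 0.86 with ANIT and 1.66 with MDA, and no point is filled with APAP or DCLF.

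APAP and DCLF served as drugs at doses given for the same 5 days. In APAP livers 0 of the 9 genes were called by limma, and 0 had an unadjusted p under 0.05, where 0.209% of probe sets were called. The 95% confidence interval of 7 of the 9 lay within 1.5-fold in either direction, but 2 of these, Cyp2e1 and Cyp2c7, were next to the top of the scale on all 6 arrays, where a narrow interval bounds no change in RNA. Groups did not overlap for 1 gene, Cyp2c23, which was lower, against 17.5% of all genes (7.09% lower). Cyp2e1, which oxidizes APAP, had 15.72, 15.68 and 15.72 in APAP livers and 15.72, 15.70 and 15.69 in corn oil (2 ml/kg) livers. These were equal to within 0.04 units, all near the top of the scale (0.00437 ± 0.0645, interval -0.14 to 0.15). Cyp2c22 had 13.47, 13.55 and 13.56 in APAP livers and 13.92, 13.77 and 13.42 in corn oil livers (-0.18 ± 0.125). Its controls spread around the APAP samples. Cyp2d4 had -0.18 ± 0.118, Cyp2c23 -0.19 ± 0.0932, Cyp2c7 -0.02 ± 0.0650, Cyp2a1 0.03 ± 0.114 and Cyp2a2 0.01 ± 0.105.

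The 2 family 3A genes were the least certain in this study. Cyp3a18 had 12.69, 13.93 and 13.52 in APAP livers and 13.56, 13.80 and 12.59 in corn oil livers. Each group held 1 low rat, so the change of 0.06 ± 0.374 had an interval of -0.80 to 0.93 and took the opposite sign (-0.30) without corn oil replicate 3. Cyp3a9 had 10.99, 11.90 and 11.73 in APAP livers and 11.64, 11.84 and 11.94 in corn oil livers (-0.27 ± 0.217, interval -0.77 to 0.23).

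In DCLF livers 0 of the 9 genes and 0% of all probe sets were called by limma, against 2 controls, and 1 of the 9 had an unadjusted p under 0.05. That gene was Cyp2c22, with 13.70, 13.72 and 13.67 in DCLF livers and 13.47 and 13.54 in water livers. The groups did not overlap, and the change was small (0.19 ± 0.0766, adjusted p = 0.38). Cyp2e1 had 15.70, 15.67 and 15.71 in DCLF livers and 15.66 and 15.77 in water livers (-0.02 ± 0.0790). Cyp3a18 had 13.61, 13.60 and 13.74 in DCLF livers and 13.64 and 12.90 in water livers, where the second control was low (0.38 ± 0.196). Cyp3a9 had 12.03, 12.15 and 11.97 in DCLF livers and 12.12 and 12.67 in water livers (-0.35 ± 0.157). The interval of 7 of the 9 lay within 1.5-fold, again with Cyp2e1 and Cyp2c7 near the top of the scale. Groups did not overlap for 3 of the 9, with Cyp2c22 higher and Cyp2c7 and Cyp2c23 lower, against 30.9% of all genes (20.8% lower). The other 5 had changes between -0.16 (Cyp2c7) and 0.14 (Cyp2d4). The difference of the APAP and DCLF effects called 0 of the 9 genes by limma, where 0.0709% of probe sets were called. The 1 gene with an unadjusted p under 0.05 was Cyp2c22 (-0.37 ± 0.161, adjusted p = 0.381).

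Levels across the 8 groups also set the 3 in-life studies and the low-ceiling arrays against each other. For Cyp2e1, water, APAP, corn oil (2 ml/kg) and DCLF livers averaged 15.72, 15.71, 15.70 and 15.69, all next to the top of the scale, where their order cannot be read. Ethanol and corn oil (5 ml/kg) livers followed, also overlapping their neighbors, at 15.40 ± 0.436 and 15.29 ± 0.778 (SD). MDA livers at 14.17 ± 0.0202 and ANIT livers at 14.08 ± 0.0257 stood below and overlapped no other group. Cyp2c22 was highest in the same pair of compound groups, with 15.57 ± 0.184 in MDA livers, 14.54 ± 0.453 in ANIT livers and 13.51 to 13.91 in the other 6 groups, whose neighbors all overlapped.

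Cyp2a2 averaged 13.13 to 13.31 in the 6 groups other than MDA (12.54 ± 0.0417) and ANIT (12.21 ± 0.0906). Cyp2d4 averaged 11.62 to 11.86 in those 6 groups, 11.09 ± 0.130 in ANIT livers and 10.98 ± 0.201 in MDA livers. Cyp3a18 averaged 13.27 to 13.65 in them, 12.99 ± 0.225 in MDA livers and 12.01 ± 0.120 in ANIT livers. Cyp3a9 ran between 11.54 and 12.40 in them, with 10.39 ± 1.12 in MDA livers and 10.23 ± 0.563 in ANIT livers. Cyp2a1 stayed between 12.33 and 12.82 in all 8 groups.

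Over the 23 samples, each taken relative to the mean of its own vehicle group, Cyp2e1 had a Pearson r of 0.86 with Cyp2a2, 0.86 with Cyp2d4 and -0.81 with Cyp2c22. Cyp2a2 and Cyp3a18 had an r of 0.87, and Cyp2a2 and Cyp2a1 one of 0.04. The genes outside the list with the highest r were Hsd17b11 (0.93) for Cyp2e1, Fabp4 (0.95) for Cyp2c22, Ust5r (0.98) for Cyp2a2, Pex11a (0.94) for Cyp2d4, Map4k5 (0.91) for Cyp3a9 and Ust5r (0.87) for Cyp3a18. These values describe 23 arrays in 8 groups, and the points share groups and arrays.

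The other P450 genes of families 1 to 3 give the setting. Of 39 listed, 23 were measured by a probe set of their own, and 3 were higher and 7 lower in ANIT livers, with a median log2 change of -0.17. In MDA livers 1 was higher and 4 were lower (median -0.11), and in APAP and DCLF livers 0 were called by limma, with 6 and 2 at an unadjusted p under 0.05. These lists were picked with earlier results of the data known. The dioxin-inducible Cyp1a1 rose most with both, by 3.87 ± 0.129 with ANIT and 3.54 ± 0.295 with MDA. Cyp2c11, the main P450 of the adult male rat, had 11.42, 11.71 and 11.57 in ANIT livers and 14.21, 13.87 and 13.97 in corn oil livers (-2.45 ± 0.116, adjusted p = 9.8e-05, limma). It had 13.45, 13.11 and 13.39 in MDA livers and 14.80, 14.30 and 14.69 in ethanol livers (-1.28 ± 0.148). The difference between those effects was called (-1.17 ± 0.201, adjusted p = 0.0169, limma), a call lost without corn oil replicate 1 (-1.07) and without the low-ceiling arrays (-1.23).

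Cyp2d3, a paralog of Cyp2d4, fell by 1.28 ± 0.172 in ANIT livers and by 0.75 ± 0.0911 in MDA livers. Cyp3a2, the male-predominant paralog of Cyp3a18, had 13.30, 13.65 and 13.20 in ANIT livers and 14.95, 14.16 and 14.35 in corn oil livers. It did not overlap its controls (-1.11 ± 0.207, adjusted p = 0.0157, limma), although the call was lost without corn oil replicate 3 (-1.17) and without the low-ceiling arrays (-1.45). In MDA livers Cyp3a2 had -0.29 ± 0.150 and was not called. Cyp2c12, the female counterpart of Cyp2c11, rose in ANIT livers (1.13 ± 0.132) but not past the threshold without the low-ceiling arrays (0.91) or with all 8 groups in 1 fit. In MDA livers it had 1.08 ± 0.327 (adjusted p = 0.0686).

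**Figure D4:**
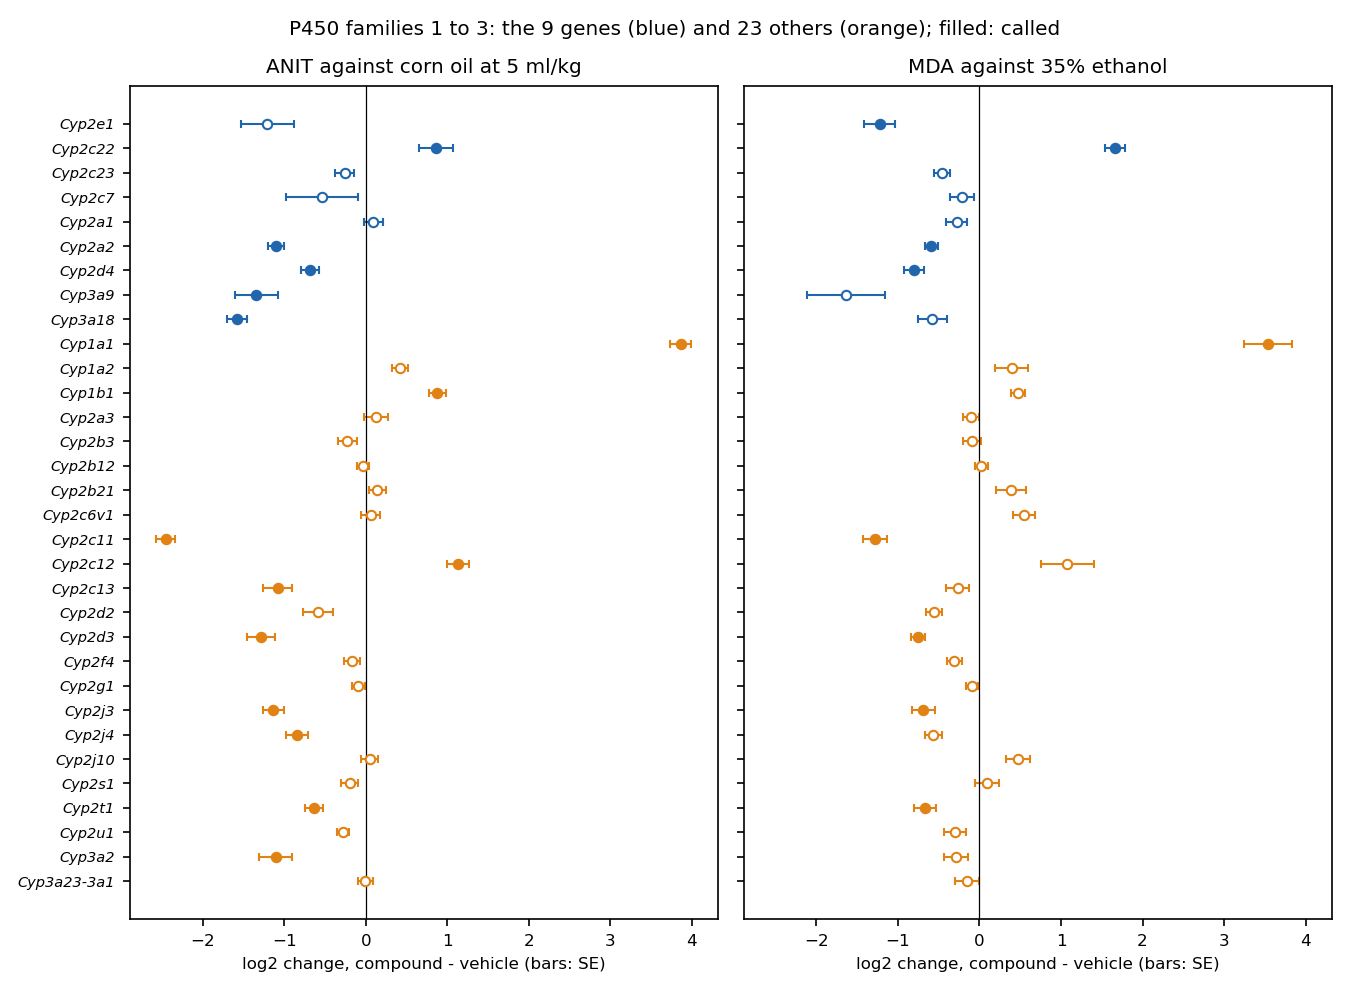
Log2 change (compound minus vehicle, bars SE) of the 9 genes (blue) and of 23 other P450 genes of families 1 to 3 (orange) in ANIT livers (left) and MDA livers (right), with filled points as calls. Cyp1a1 lies farthest to the right in both panels (3.87 and 3.54), and Cyp2c11 farthest to the left of the called genes with ANIT (-2.45).

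Other sex-dependent genes were counted beside these. Of 6 male-predominant genes measured, Cyp2c11, Cyp2c13 and Cyp3a2 included, 6 were lower and 0 higher in ANIT livers (median -1.93). In MDA livers 3 were lower and 0 higher (median -0.96). APAP livers had 0 of the 6 called by limma, but 4 at an unadjusted p under 0.05 (median -0.565). DCLF livers had 0 called and 0 at that p (median 0.07). Of 5 female-predominant genes, 3 rose and 0 fell in ANIT livers (median 1.05), a count of 1 without the low-ceiling arrays. The 3 were Abcc3, Cyp2c12 and the repressor Cux2 (1.05 ± 0.262, adjusted p = 0.0456), whose call was lost without any 1 corn oil replicate or ANIT replicates 1 or 2. In MDA livers 1 rose, Abcc3 (median 0.38). The prolactin receptor Prlr had negative values that were not called, -0.62 ± 0.197 in ANIT livers and -1.22 ± 0.402 in MDA livers (adjusted p = 0.0889, limma). Its value in DCLF livers was more negative, at -1.48 ± 0.160, and not called either (adjusted p = 0.107, limma). The odorant-binding protein gene Obp3 had the largest change of the male list with ANIT (-4.96 ± 1.02, adjusted p = 0.0226, limma), a call lost without any 1 corn oil replicate (-4.73 to -5.12) or ANIT replicate 1 (-4.38). The hydroxyacid oxidase Hao2 fell with MDA (-1.06 ± 0.119). The organic anion transporter Ust5r fell by 2.54 ± 0.116 with ANIT and by 1.28 ± 0.131 with MDA. The conjugate exporter Abcc3 rose with ANIT (2.70 ± 0.348), MDA (2.69 ± 0.118) and APAP (2.87 ± 0.0932, adjusted p = 2.41e-05, limma), in the last without a called change in any of the 9 genes.

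Electron supply and heme synthesis were counted in 15 measured genes. Of these 1 was higher and 2 lower in ANIT livers (median -0.02), and 2 higher and 0 lower in MDA livers (median -0.10). The reductase Por had 12.62, 12.75 and 12.45 in ANIT livers and 12.06, 12.20 and 11.97 in corn oil livers. Its groups did not overlap, and the change of 0.53 ± 0.103 stayed under the fold threshold (adjusted p = 0.0181). In MDA livers it was -0.01 ± 0.121. Heme oxygenase Hmox1, which breaks heme down, rose in ANIT (0.90 ± 0.116) and MDA livers (0.96 ± 0.135). Ferrochelatase Fech, the last enzyme of heme synthesis, fell in ANIT livers (-0.75 ± 0.118). The rate-limiting Alas1 fell with ANIT (-1.002 ± 0.235, adjusted p = 0.0362), a call lost without any of the 3 corn oil replicates (-0.80 to -1.11) or ANIT replicates 1 (-0.95) or 3 (-0.83). The biliverdin reductase Blvra rose in MDA livers (0.64 ± 0.110), a call lost without MDA replicate 3 (0.56). In the differences between compounds Cyb5b (0.999 ± 0.211) and Ppox (0.65 ± 0.138) passed for ANIT minus MDA and Cpox (0.69 ± 0.104) for APAP minus DCLF, each call lost without most single replicates.

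Of 23 regulators of hepatic P450 genes measured, 2 were lower and 2 higher in ANIT livers (median -0.29). In MDA livers 8 were lower and 2 higher (median -0.46). APAP and DCLF livers had 0 called by limma, with 6 and 7 at an unadjusted p under 0.05. Stat5b had -0.50 ± 0.117 with ANIT, -0.56 ± 0.0930 with MDA and -0.60 ± 0.0952 with DCLF, none called. With ANIT and MDA it passed the adjusted p (0.035 and 0.00688, limma) but not the fold. With DCLF it passed the fold but not the adjusted p (0.258, limma). The growth hormone receptor Ghr had -0.43 ± 0.151 with ANIT, not called, and fell with MDA (-0.85 ± 0.0859). Their part in the changes of sex-dependent genes was not tested. In ANIT livers Foxa1, a hepatocyte factor, had -0.65 ± 0.137 (adjusted p = 0.0246), a call lost without any 1 corn oil replicate or ANIT replicates 1 or 2. The xenobiotic receptors Nr1i2 (PXR) and Nr1i3 (CAR) did not pass in ANIT or MDA livers, with -0.15 ± 0.0763 and -0.54 ± 0.190 in ANIT livers and -0.19 ± 0.102 and -0.78 ± 0.239 in MDA livers. Onecut1, a hepatocyte factor, fell by 2.61 ± 0.204 in MDA livers and had -0.29 ± 0.189 in ANIT livers. That difference was called (2.32 ± 0.308, adjusted p = 0.00468, limma). The nuclear receptor Rora fell in MDA livers (-1.34 ± 0.153), and the repressor Bcl6 rose there (1.31 ± 0.230), except with all 8 groups in 1 fit or with the methods' t-test, where it was not called.

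Genes of liver zonation were counted beside Cyp2e1. Of 9 other pericentral genes, 1 was lower in ANIT livers (median -0.30), 4 in MDA livers (median -0.50) and 2 in APAP livers (median -0.74), with 0 higher in each. Of 11 periportal genes, 2 were lower and 0 higher in ANIT livers (median -0.17), 3 lower and 1 higher in MDA livers (median -0.31) and 1 lower in APAP livers. The pericentral aminotransferase Oat fell in MDA livers (-1.67 ± 0.165). The gulonolactone oxidase Gulo, of vitamin C synthesis, fell there too (-1.20 ± 0.114), as did the Wnt target Axin2 (-0.90 ± 0.158). For Gulo the ANIT effect minus the MDA effect was 0.93 ± 0.137 (adjusted p = 0.00798, limma), a call lost without the low-ceiling arrays (1.02). Oat had -1.06 ± 0.213 in ANIT livers, a call lost without corn oil replicates 2 (-1.05) or 3 (-0.95) or ANIT replicate 1 (-0.92). In APAP livers Oat had -1.08 ± 0.150 (adjusted p = 0.0456), a call lost without any 1 of the 6 rats, and the glutamate transporter Slc1a2 had -0.82 ± 0.112, a call lost without any 1 of them but corn oil replicate 3. The periportal histidine ammonia-lyase Hal fell in MDA livers (-1.83 ± 0.207) and ANIT livers (-1.43 ± 0.270), the ANIT call being lost without any 1 corn oil replicate (-1.38 to -1.49). The other periportal genes called and among the 3 largest changes were Gls2 with ANIT (-0.68 ± 0.149), Hsd17b13 with MDA (-0.75 ± 0.183) and Sds with APAP (-0.88 ± 0.0987), and each call was lost without any of 3 or more single replicates.

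Of 14 acute phase and inflammatory genes, 3 were higher and 0 lower in ANIT livers (median 0.33) and 7 higher and 0 lower in MDA livers (median 0.65). The iron-binding lipocalin Lcn2 rose by 5.36 ± 0.503 with ANIT and 3.62 ± 0.129 with MDA, and the neutrophil chemokine Cxcl1 by 2.66 ± 0.150 and 2.76 ± 0.175. The acute phase glycoprotein Orm1 rose with MDA (1.62 ± 0.151). In APAP and DCLF livers 0 of these 14 were called by limma, with 2 and 4 at an unadjusted p under 0.05. Markers of other cells moved in the same livers: of 11 macrophage markers 2 were higher with ANIT and 9 with MDA, and of 11 stellate cell and fibroblast markers 5 were higher and 1 lower with ANIT and 6 higher and 1 lower with MDA. Of 9 hepatocyte markers 1 was higher and 0 lower with ANIT, and 0 were higher and 2 lower with MDA. The aminotransferase Tat rose with ANIT (0.70 ± 0.139). With MDA, Tat (-0.86 ± 0.0983) and the dioxygenase Tdo2 (-0.76 ± 0.120) fell. Tat averaged 12.27 and Tdo2 13.84 over all arrays, below the top of the scale. Alb, Serpina1, Apoc3, Ttr and Ahsg averaged 15.51 or more, near that top, where the lack of a call says little. The part of these cells in the P450 changes was not tested.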

How the data were processed

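Total liver RNA was hybridized in a single color to Affymetrix rat genome arrays. The authors had summarized the arrays by robust multichip averaging (RMA) in Array Studio and deposited log2 values. Background correction and normalization were thus done before deposit. In the deposited values the top of the scale still differed between 3 arrays and the other 20, as given above. Of 31099 probe sets, 57 Affymetrix controls were left out. Array depth has no count, so precision rests on the number of arrays. Probe sets were named through the platform annotation, updated to current symbols.

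Each compound was compared with its own vehicle in R 4.3.3 with limma 3.58.1, with only the groups compared in the fit, two-sided tests and Benjamini-Hochberg adjustment over 31042 probe sets. The study's methods used a t-test, which was run as an alternative at p under 0.01 and after adjustment. Genes of the pathway lists were named where they were called and among the 3 largest changes of their list in a comparison. The reductase, paralogs, the xenobiotic receptors, Prlr, Ghr and Stat5b were named regardless. The genes and gene lists were chosen with earlier results of these data known. The code was tested on simulated data. Other settings were quantile normalization, median centering, a filter on dim probe sets, all 8 groups in 1 fit, an intensity trend in the prior, the mean of a gene's probe sets, leaving out each replicate, and leaving out 3 low-ceiling arrays. Replicates are separate rats by their titles, although the 3 corn oil (5 ml/kg) titles end in the same animal number. Within a group, pairs of arrays had an r of 0.987 to 0.995, and 0 pairs were identical. Protein sequences were not used here.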

Additional observations from a re-analysis of the deposited data

How the results depend on the processing

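No paired analysis was possible because compound and vehicle samples came from different rats. Replicate numbers here follow accession order. For ANIT, 1 gene was called higher and 4 lower. The methods' t-test called 0 higher and 3 lower at its unadjusted threshold and 0 higher and 2 lower after adjustment, and leaving out 1 replicate gave 0 to 1 higher and 3 to 4 lower. For MDA (1 higher, 3 lower) the t-test after adjustment called 1 lower, and leaving out 1 replicate gave 2 to 4 lower. The difference between the ANIT and MDA effects had 0 genes called lower, and 1 with quantile normalization or with dim probe sets left out (0 to 1 with 1 replicate left out). Among the lists, the 6 male-predominant genes lower with ANIT were 4 to 6 with 1 replicate left out and 2 by the adjusted t-test, and the 3 female-predominant genes higher were 1 without the low-ceiling arrays. The pericentral genes lower with APAP (2) were 0 to 2 with 1 replicate left out, 0 with median centering, 1 with dim probe sets left out and 5 with all 8 groups in 1 fit. Those lower with ANIT (1) were 0 to 2 with 1 replicate left out, and those lower with MDA (4) were 2 with dim probe sets left out. The cause of these shifts was not tested.

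Uncalled changes took the other sign in 12 cases outside the replicate settings. Without the low-ceiling arrays these were Cyp2a1 in ANIT livers (-0.13) and, in the difference of the ANIT and MDA effects, Cyp2e1 (-0.45, and -0.21 with quantile normalization) and Cyp2c7 (0.14). With median centering they were Cyp2e1 (-0.00943) and Cyp2a2 (-0.00297) in APAP livers, Cyp2a2 (0.00835, and 0.0364 with quantile normalization) in DCLF livers, and Cyp2e1 (-0.00375) and Cyp2a2 (-0.0113, and -0.0128 with quantile normalization) in the difference of the APAP and DCLF effects, where Cyp3a9 had -0.0247 with quantile normalization.

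Leaving out 1 replicate also turned uncalled changes, which ranged in APAP livers between -0.00342 and 0.0166 for Cyp2e1, -0.0368 and 0.155 for Cyp2a1, -0.101 and 0.0895 for Cyp2a2, -0.445 and 0.00723 for Cyp3a9, and -0.300 and 0.407 for Cyp3a18. In DCLF livers they ranged between -0.077 and 0.0334 for Cyp2e1, -0.077 and 0.0273 for Cyp2a2, and -0.0146 and 0.288 for Cyp2d4. In the ANIT minus MDA difference they ranged between -0.428 and 0.270 for Cyp2e1 and -0.342 and 0.687 for Cyp3a9. In the APAP minus DCLF difference they ranged between -0.0290 and 0.0814 for Cyp2e1, -0.105 and 0.0483 for Cyp2c23, -0.0927 and 0.0972 for Cyp2a2, -0.191 and 0.355 for Cyp3a9, and -0.683 and 0.0533 for Cyp3a18. Precision is limited by 2 or 3 arrays a group and, for Cyp2e1, Cyp2c7 and the brightest hepatocyte markers, by the top of the scale.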

Other observations

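Corn oil (2 ml/kg) replicate 3 stood apart from its group in several sex-dependent genes, a pattern chosen after its values were seen. The male-predominant Cyp3a2 read 12.86 there against 14.62 and 14.48 in the other 2 rats, Cyp2c11 13.63 against 14.33 and 14.35, and Ust5r 11.57 against 12.59 and 12.71. The female-predominant Cyp2c12 read 13.54 against 12.05 and 12.04. Among the 9 genes Cyp3a18 read 12.59 in this rat against 13.56 and 13.80, and Cyp2a2 12.98 against 13.27 and 13.36. In the APAP livers of that comparison Cyp3a2 read 12.97, 13.02 and 12.66, a change of -1.10 ± 0.413 that was not called by limma (adjusted p = 0.422).

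Of 3 erythroid genes measured, 2 were lower in ANIT livers, 2 in MDA livers and 1 in APAP livers. Of 9 lymphocyte markers, 0 were called in ANIT livers by limma (4 at an unadjusted p under 0.05) and 3 were higher in MDA livers. Of 4 neutrophil markers 0 were called in ANIT or MDA livers by limma, with 2 and 3 at an unadjusted p under 0.05 and medians of 0.28 and 0.34.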
